A study of Mus musculus with 7 samples.

Results

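The genes described here encode the proteins of the cytosolic ribosome, measured by bulk RNA-seq in sorted mouse intestinal crypt cells after feeding on 3 diets. Members were the genes whose deposited symbol begins with Rpl or Rps followed by a digit, leaving out symbols with -ps, which mark pseudogenes, and the Rps6k kinases. This gave 81 of the 37310 genes in the count table, 48 named for the large subunit and 33 for the small subunit. The rule used names alone and no measured value.

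The mice carried BmicreERT2, a tamoxifen-inducible Cre recombinase driven from the Bmi1 locus, together with Rosa26RFP, a red fluorescent reporter that Cre switches on. They received a purified diet from weaning until 3 months of age, and all 7 libraries share this genotype and age. Crypt cells with strong red fluorescence that carried the epithelial protein Epcam and lacked the leukocyte protein CD45 were collected in bulk. AIN76A, the control diet, had 2 libraries, NWD1, a Western-style diet, had 3, and NWD2, a related Western-style diet, had 2. All libraries were labelled male except NWD1 replicate 2, which was labelled female. Nothing in the labels ties each library to a separate mouse, so the p-values reflect only the spread between these libraries, which may be technical.

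Each ribosome joins a large subunit, which forms peptide bonds, to a small subunit, which reads the mRNA. Cells make the ribosomal proteins in matched amounts, and their mRNAs begin with a run of pyrimidines, the 5′ terminal oligopyrimidine (TOP) tract, through which mTORC1 signalling controls their translation. In the intestinal crypt, rapid renewal of the epithelium makes ribosome production a large part of what proliferating cells do.

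Start regions are shown because members varied together over the libraries, as described below. RefSeq start regions (GRCm38.p6, 250 bases before to 50 after the start) were found for 57 members. The heptamer CTCTTTC, a pyrimidine run, stood on either strand in 31.6% of these 57 members and in 9.28% of 27025 genes with a start region of the same 300 bases. In the sense direction between 20 bases before and 30 bases after the start, it stood in 8 of the 57 members and 0.796% of all genes. The hexamer CTTCCG, the core of an ETS-factor site, stood on either strand in 68.4% of the members and 18.8% of all genes, AAGATGG in 17.5% and 7.28%, and TATAAA in 10.5% and 15.7%. None of these motifs contains another, although matches may share end bases, and a match describes the letters only. Rpl7l1 and Rpl10, among the 3 members with the smallest range over the libraries, hold neither CTCTTTC nor CTTCCG from 40 bases before to 20 after the start. Rpl13a, among those with the largest range at 4.66-fold, also holds neither, while Rpl18, with CTCTTTC, ranged 2.37-fold. Whether these motifs go with the range was not tested. The lines that follow give these 60 bases, spanning the upstream sequence and the beginning of the first exon. They show 4 large-subunit and 2 small-subunit genes with CTCTTTC in capitals, followed by Rpl7l1 and Rpl10.
Rpl18 (chr7:45718031-45718090, plus strand): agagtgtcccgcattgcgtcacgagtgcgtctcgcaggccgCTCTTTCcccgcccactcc
Rpl28 (chr7:4792925-4792984, plus strand): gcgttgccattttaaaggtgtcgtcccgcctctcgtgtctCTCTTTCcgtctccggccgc
Rpl35 (chr2:39005112-39005171, minus strand): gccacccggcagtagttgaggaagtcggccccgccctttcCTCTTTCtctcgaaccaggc
Rpl5 (chr5:107900488-107900547, plus strand): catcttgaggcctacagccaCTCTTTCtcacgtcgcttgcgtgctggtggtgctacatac
Rps15a (chr7:118116128-118116187, minus strand): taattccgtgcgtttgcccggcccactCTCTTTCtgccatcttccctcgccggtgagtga
Rps26 (chr10:128626487-128626546, minus strand): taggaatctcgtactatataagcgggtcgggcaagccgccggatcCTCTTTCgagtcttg
Rpl7l1 (chr17:46782637-46782696, minus strand): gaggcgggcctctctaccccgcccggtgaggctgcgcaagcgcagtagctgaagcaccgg
Rpl10 (chrX:74270776-74270835, plus strand): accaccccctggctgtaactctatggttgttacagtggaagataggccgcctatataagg

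Library totals ranged from 14034315 counts in NWD1 replicate 3 to 77959407 in NWD2 replicate 2, of which 64090 to 634663 fell on the 81 members. Levels are in CPM, read counts relative to the TMM-scaled library total, unless another unit is named. Bmi1 was at 2.11 to 5.25 CPM, Epcam at 225 to 1338 CPM and Ptprc, which encodes CD45, at 1.17 to 5.75 CPM. NWD2 replicate 2 had the lowest Epcam level, and Lyz1, a Paneth cell gene, reached 4122 to 13560 CPM. For NWD1 replicate 3 the deposited TPM table has no column, while it has a column headed as NWD2 replicate 3 that matches no sample, so the diet of that library is less certain. Of the 81 members, 78 passed the filter on low counts and were tested with 14548 other genes. The 3 that did not are the tissue-restricted copies Rpl3l, with 14 counts over all libraries, Rpl39l, with 4, and Rpl10l, with 0, which allows up to 3 counts a library, or 0.214 CPM in the shallowest.

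The summed level of the 78 tested members was 11426 and 6621 CPM in AIN76A replicates 1 and 2. It was 8673, 3858 and 4255 CPM in NWD1 replicates 1 to 3, and 8491 and 4530 CPM in NWD2 replicates 1 and 2. The diets overlapped throughout, and in each of them replicate 1 stood far above the others. The sums averaged 9024 ± 3398 CPM (SD, n = 2) for AIN76A. For NWD1 the mean was 5595 ± 2673 CPM (SD, n = 3), and for NWD2 it was 6510 ± 2801 CPM (SD, n = 2). Differences between these means were smaller than, or of about the size of, the spread within a diet. As a share of all counts in a library, the members took 1.09% and 0.690% with AIN76A, 0.947%, 0.407% and 0.457% with NWD1, and 0.866% and 0.361% with NWD2. In bulk samples, fewer cells that make much ribosomal protein mRNA and less of it per cell cannot be told apart.

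**Figure D1:**
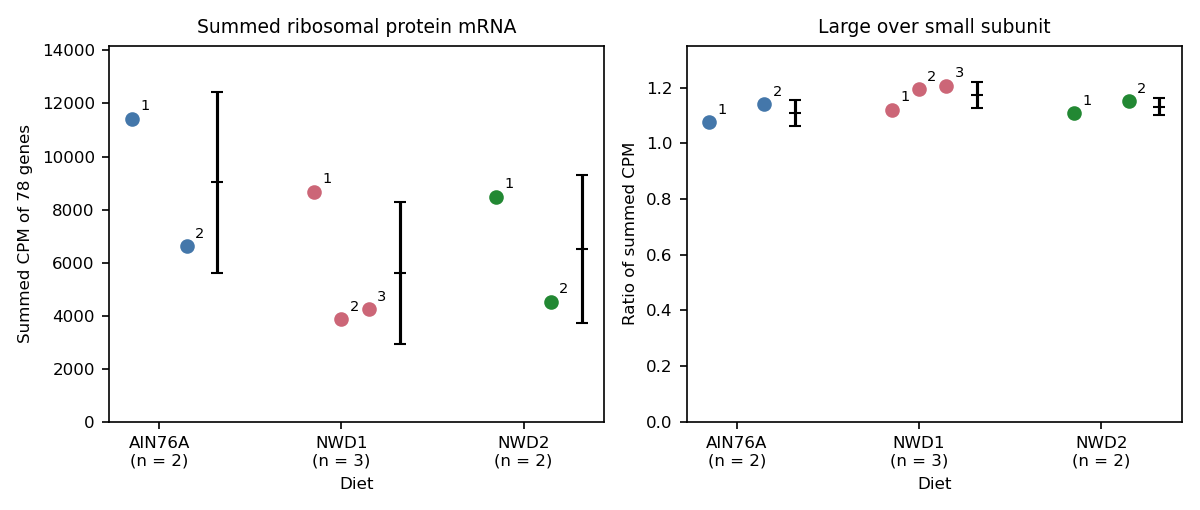
Left, summed CPM of the 78 tested ribosomal protein genes in each library by diet. Right, the ratio of summed large-subunit to summed small-subunit CPM. Points are libraries numbered by replicate, and bars show the mean and SD of each diet. Sums run from 3858 to 11426 CPM while the ratio stays between 1.08 and 1.21.

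Both subunits varied together. Summed large-subunit over small-subunit CPM gave a ratio of 1.08 and 1.14 for the AIN76A libraries, 1.12, 1.19 and 1.21 for those of NWD1 and 1.11 and 1.15 for those of NWD2. It thus varied far less than the sums, and it was lowest in AIN76A replicate 1, where the sums were highest. The median member stood 0.87 (log2) above its own mean over the 7 libraries in AIN76A replicate 1, 0.49 above in NWD1 replicate 1 and 0.44 above in NWD2 replicate 1. AIN76A replicate 2 lay near the mean, at 0.06. The median member lay 0.52 below its mean in NWD2 replicate 2, 0.60 below in NWD1 replicate 3 and 0.74 below in NWD1 replicate 2.

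Every tested member was highest in AIN76A replicate 1. For 74 of the 78, the 3 highest libraries were replicate 1 of AIN76A, of NWD1 and of NWD2. The lowest library was NWD1 replicate 2 for 41 members, NWD1 replicate 3 for 24 and NWD2 replicate 2 for 13. Within diets, replicate 1 exceeded replicate 2 for 78 of 78 members in AIN76A by a median of 0.83 (log2), for 78 of 78 in NWD1 by 1.19, and for 77 of 78 in NWD2 by 1.0. Over all genes tested the same shares were 49.0%, 49.8% and 51.8%, with medians of -0.01, -0.0018 and 0.03. The exception was Rps27l, which is described with the paralogs. The replicate numbers are names in the labels and nothing in the labels says that a number marks a shared day or litter.

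**Figure D2:**
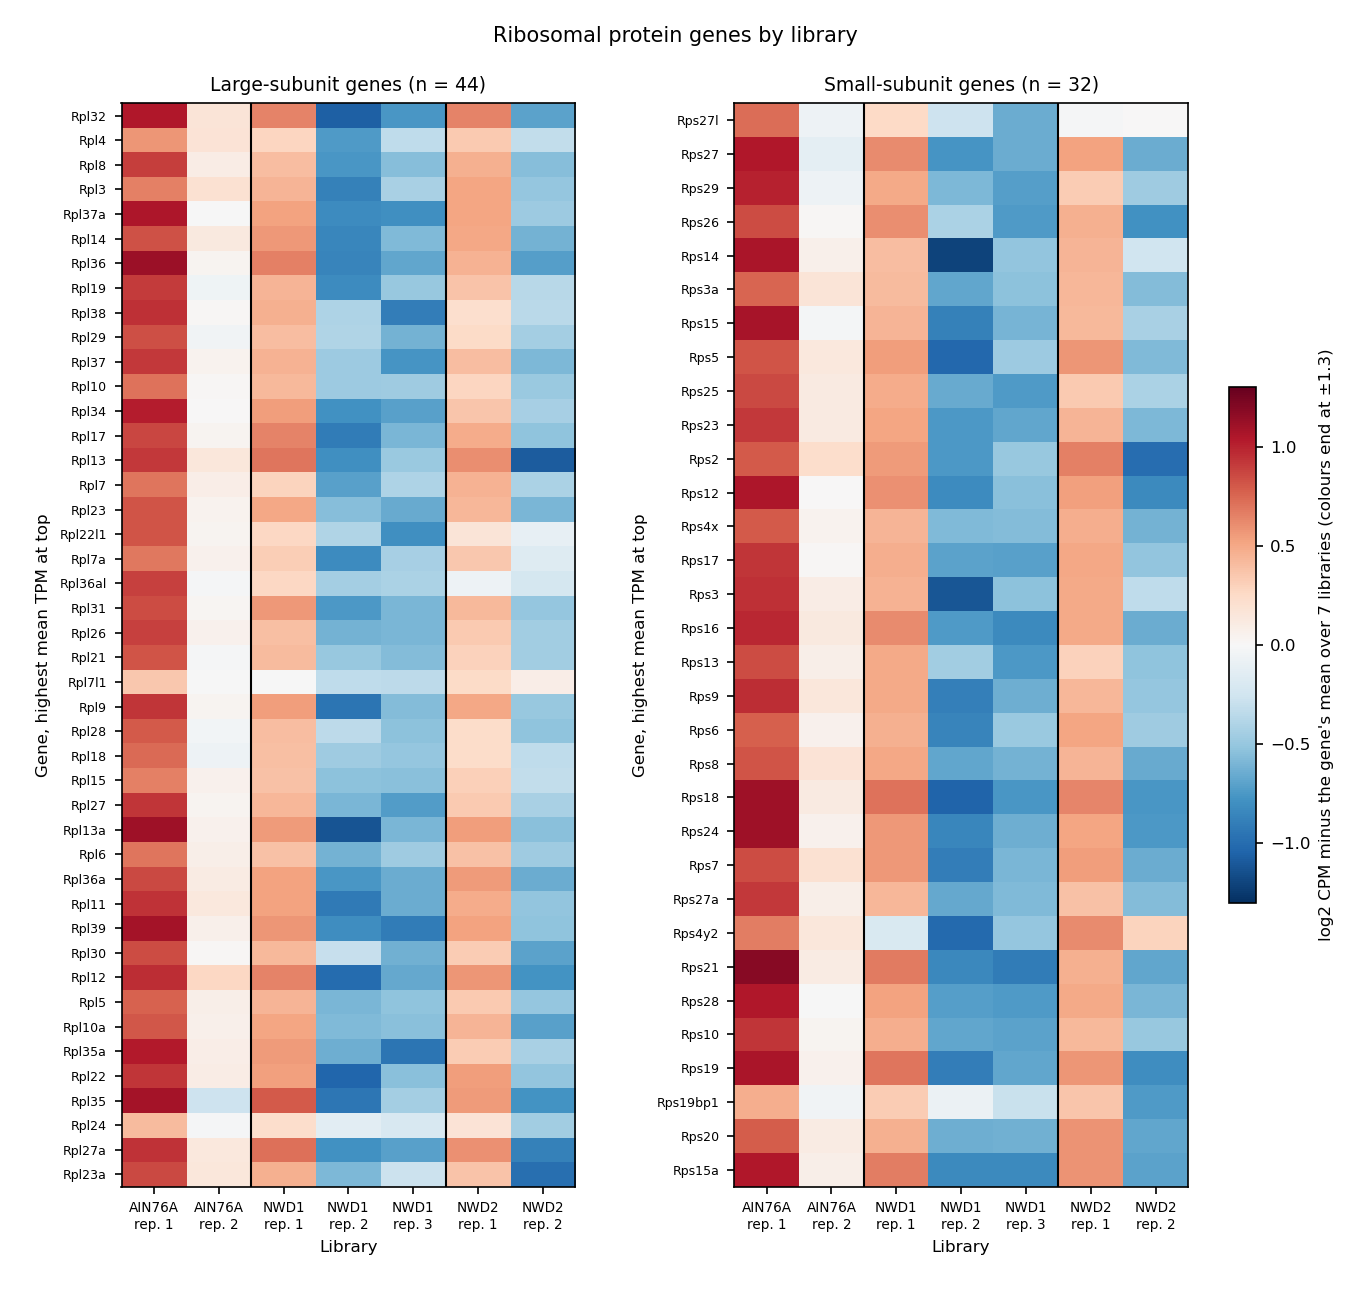
Colour shows log2 CPM minus the mean of the gene over the 7 libraries for the tested large-subunit and small-subunit genes that are reported here, ordered by mean TPM. Vertical lines divide the diets AIN76A, NWD1 and NWD2. Nearly every gene is red in replicate 1 of each diet and blue in NWD1 replicates 2 and 3 and NWD2 replicate 2, with Rpl7l1, Rpl24, Rps27l, Rps4y2 and Rps19bp1 paler or differing.

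The members varied as a block. Across the tested members, 92.2% of the squared deviation of log2 CPM from the gene means followed a profile common to all of them. The range of log2 CPM over the libraries had a median of 1.66 and ran from 0.69 to 2.26, compared with a median of 1.29 over all genes. The highest library exceeded the lowest by a median of 3.16-fold among members. The SD of a member around the common profile had a median of 0.13 and was under 0.2 for 64 of 78. These shares describe 7 libraries and carry no test.

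TPM is scaled by gene length so that genes can be compared, but the authors' gene lengths are unstated. From counts and TPM, the members' lengths ran from 0.104 to 1.88 of the median over all genes tested, and the order by TPM depends on them. Among large-subunit proteins, mean TPM was highest for Rpl32 at 543. Rpl4, which lines the tunnel for the growing peptide, reached 439 TPM, Rpl8 and Rpl3, which both reach towards the peptidyl transferase centre, 422 and 280, and Rpl37a 277. Rpl4 gave 463 and 353 CPM in the AIN76A libraries, 379, 186 and 248 CPM in those of NWD1 and 395 and 249 CPM in those of NWD2. Its lowest AIN76A library was below the highest library of each other diet. Levels of Rpl3 were 287 and 210 CPM for AIN76A, 249, 99.2 and 137 CPM for NWD1 and 261 and 129 CPM for NWD2, again with the replicate 1 libraries as the 3 highest. Rpl32 stood at 254 and 139 CPM under AIN76A, 193, 59.2 and 73.0 CPM under NWD1 and 193 and 76.2 CPM under NWD2, a wider swing with the same overlap.

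Among the small-subunit proteins of highest mean TPM were Rps27l at 511, Rps27 at 502, Rps29 at 360, Rps26, which sits at the exit of the mRNA channel, at 330 and Rps14, which is encoded in the interval lost in the human 5q- syndrome, at 290. Levels of Rps14 were 390 and 194 CPM for AIN76A, 246, 81.1 and 130 CPM for NWD1 and 253 and 156 CPM for NWD2. Rps14 had the largest range of any tested member, 4.81-fold between AIN76A replicate 1 and NWD1 replicate 2. It was followed by Rpl13a, which also belongs to a translation-silencing complex in macrophages, at 4.66-fold and by Rps18, a protein of the small-subunit head, at 4.41-fold. The members at the other end of the range were Rpl7l1 at 1.61-fold, the entry named Rpl24 at 1.83-fold and Rpl10 at 2.28-fold.

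Members with known roles beyond their place in the ribosome had broadly the same library order. Rps6, the small-subunit protein that S6 kinase phosphorylates downstream of mTORC1, stood at 138 and 84.0 CPM under AIN76A, 111, 44.5 and 57.6 CPM under NWD1 and 115 and 58.6 CPM under NWD2. Rps3, at the entry of the mRNA channel, gave 490 and 270 CPM in the AIN76A libraries, 346, 117 and 175 CPM in those of NWD1 and 357 and 201 CPM in those of NWD2. In both genes the replicate 1 libraries were the 3 highest and the diets overlapped. Rpl5 and Rpl11, which bind the 5S rRNA and as a free complex restrain Mdm2, spanned 35.6 to 91.4 CPM and 26.2 to 94.6 CPM. Rps19, mutated in Diamond-Blackfan anaemia, spanned 42.3 to 165 CPM, and Rpl10a, which has been found at unequal levels between ribosomes, 17.3 to 49.2 CPM. Rpl22, whose protein represses the mRNA of its paralog Rpl22l1, spanned 12.4 to 48.2 CPM.

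With NWD1 against AIN76A, the fitted log2 fold change was below 0 for 78 of 78 members, against 49.4% of all genes tested. Its median was -0.70 (a ratio of 0.617), its quartiles -0.77 and -0.62, and its extremes -0.96 and -0.22, while the median over all genes was 0.0078. For 72 members it lay within 0.2 of the members' median. No member passed the edgeR quasi-likelihood test at a Benjamini-Hochberg adjusted p of 0.05, nor did any of the 14626 genes (0%), and the smallest adjusted p among members was 0.878. An unadjusted edgeR p under 0.05 was reached by 1 member, Rps4y2, against 3.42% of all genes. Libraries of the 2 diets did not overlap, with NWD1 lower, for 1 member, again Rps4y2, against 8.61% of all genes.

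With this comparison the median standard error of a member's log2 fold change was 0.46, so that a difference of 0.70 in a single member is not separable from the spread between libraries. The 78 members share their libraries and are not 78 independent measurements. Their common direction follows the level of the 7 libraries, and the SD of the members' median log2 CPM within diets, pooled, was 0.61. Leaving out AIN76A replicate 1 brought the median to -0.22, and leaving out NWD1 replicate 1 brought it to -1.19. Without AIN76A replicate 2 it was -1.05, without NWD1 replicate 2 -0.48 and without NWD1 replicate 3 -0.52. On log2(TPM + 1), with 6 libraries, it was -0.40.

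The 4 members of smallest p in that comparison were Rps4y2, Rpl36al, Rps14 and Rpl22l1. Rps14 had a log2 fold change of -0.94 ± 0.48 (SE), Rpl36al -0.67 ± 0.34 and Rpl22l1 -0.72 ± 0.37, each with an edgeR adjusted p of 0.878. By comparison Rps3 had -0.84 ± 0.48, Rpl13a -0.88 ± 0.53, Rps6 -0.64 ± 0.44 and Rpl4 -0.59 ± 0.36. The differences nearest 0 belonged to Rps19bp1 at -0.22 ± 0.38, the entry named Rpl24, whose identity is in doubt as given below, and Rpl7l1 at -0.39 ± 0.25. Large-subunit members had a median of -0.64 and small-subunit members -0.73.

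With NWD2 against AIN76A, the log2 fold change was below 0 for 77 of 78 members, against 52.6% of all genes tested. The median was -0.52, the range -0.74 to 0.03 and the median over all genes -0.03. The edgeR test called no member and 0% of all genes, with a smallest adjusted p of 0.996 among members and an unadjusted p under 0.05 for 0 members, against 3.83% of all genes. Rpl36al was the 1 member whose NWD2 libraries were both below both AIN76A libraries, against 13.2% of all genes. Its levels were 97.7 and 52.3 CPM for AIN76A against 50.4 and 45.1 CPM for NWD2, with a log2 fold change of -0.65 ± 0.37 (SE). Rpl23a, a protein of the tunnel exit, had -0.70 ± 0.55, Rpl30 -0.58 ± 0.47, Rpl28 -0.53 ± 0.43 and Rps6 -0.35 ± 0.49.

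This median also depended on single libraries. It was -0.03 without AIN76A replicate 1, -0.08 without NWD2 replicate 2, -0.86 without AIN76A replicate 2 and -1.12 without NWD2 replicate 1. With the i5 index of the labels as a term it was 0.11, with 14 of 78 members lower. Both NWD2 libraries carried 1 i5 index and both AIN76A libraries the other, and only NWD1 carried both, so that this fit takes the index effect from NWD1 replicate 3 alone.

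With NWD2 against NWD1, the log2 fold change was above 0 for 75 of 78 members, against 53.4% of all genes tested. The median was 0.19, the range -0.10 to 0.99 and the median over all genes 0.05. Again the edgeR test called no member and 0% of all genes, the smallest adjusted p among members being 0.5225, and 1 member, Rps4y2, had an unadjusted p under 0.05, against 7.89% of all genes. The NWD2 libraries lay above all NWD1 libraries for 2 members, Rpl7l1 and Rps4y2, against 10.8% of all genes. Rpl7a had a log2 fold change of 0.34 ± 0.37 (SE), Rps14 0.42 ± 0.48 and Rpl7l1 0.38 ± 0.25. The median's direction did not hold. It was -0.40 without NWD2 replicate 1, -0.02 without NWD1 replicate 2 and 0.0047 without NWD1 replicate 3. With sex as a term it was -0.01. NWD1 replicate 2 is the only library labelled female, so this term in effect repeats leaving it out. The median was -0.0026 when scaled by library size and -0.16 on log2(TPM + 1). It was 0.71 without NWD1 replicate 1, 0.62 without NWD2 replicate 2 and 0.65 with the i5 index as a term.

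In the 3 comparisons, the DESeq2 Wald test called 1, 52 and 180 of all genes and limma voom 0 in each, with no member among them. The 3 comparisons share libraries, so their values stand side by side and are not separate evidence. Scaling by library size in place of TMM moved the median over all genes to 0.11 for NWD1 against AIN76A, -0.15 for NWD2 against AIN76A and -0.19 for NWD2 against NWD1. Relative to those, the members' medians of -0.56, -0.57 and -0.0026 kept them below the other genes in both comparisons with AIN76A and above them in the third.

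**Figure D3:**
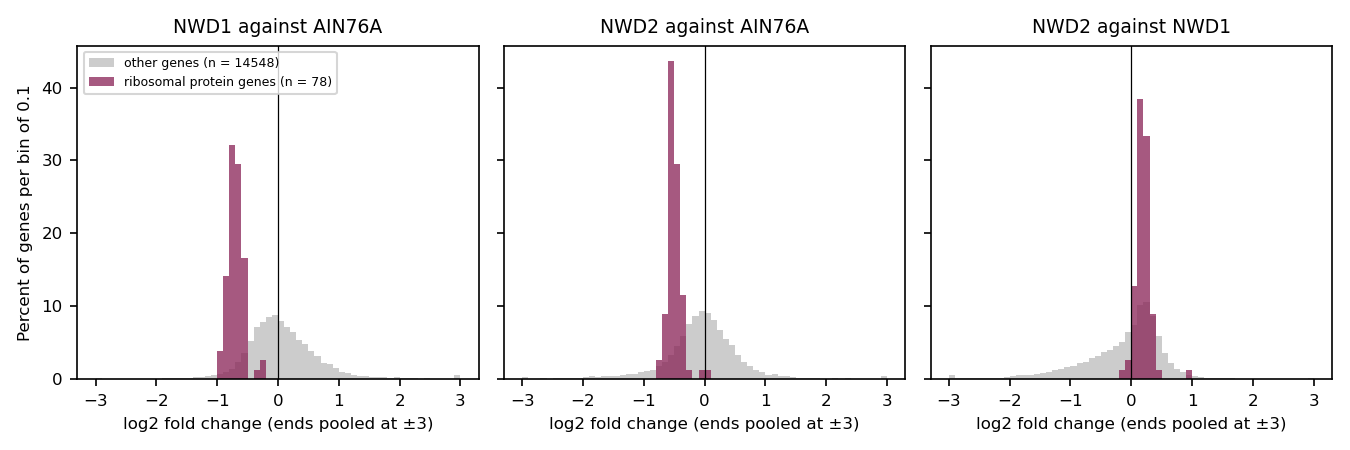
Distribution of fitted log2 fold changes in 3 comparisons for the 78 tested ribosomal protein genes and the 14548 other genes, as percent of genes per bin of 0.1, with values beyond 3 pooled at the ends. The members form a narrow peak at medians of -0.70, -0.52 and 0.19. The comparisons share libraries, and no member passed the test.

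**Figure D4:**
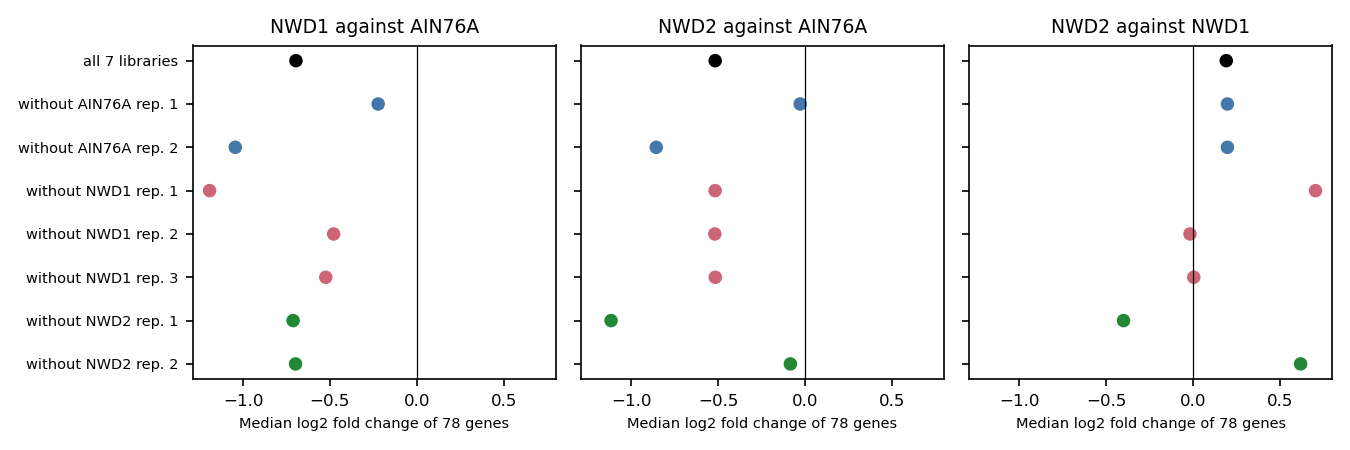
Median log2 fold change of the 78 members in each comparison with all 7 libraries (top, black) and with each library left out in turn (coloured by its diet). Medians run from -1.19 to -0.22, from -1.12 to -0.03 and from -0.40 to 0.71.

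Paralogs and other names matched by the rule departed most from the common profile. Levels of Rps4y2 were 47.7 and 33.3 CPM for AIN76A, 26.2, 14.9 and 21.3 CPM for NWD1 and 46.2 and 36.7 CPM for NWD2. Its 3 NWD1 libraries lay below all 4 others. The log2 fold change was -0.96 ± 0.31 (SE) for NWD1 against AIN76A, with an unadjusted p of 0.012 and an adjusted p of 0.878 in edgeR, 0.03 ± 0.34 for NWD2 against AIN76A, and 0.99 ± 0.31 for NWD2 against NWD1, with an unadjusted p of 0.010 and an adjusted p of 0.5225 in edgeR. Its SD around the members' common profile, 0.43, was the largest of the 78. In GENCODE M21 the Ensembl ID of this entry carries the name Rps4l and the type transcribed processed pseudogene, so it need not encode a ribosomal protein. Its longest open reading frame was 80.1% identical to that of Rps4x, with a longest identical run of 35 bases. Rps4x itself stood at 180 and 107 CPM under AIN76A, 141, 69.6 and 70.5 CPM under NWD1 and 144 and 68.0 CPM under NWD2, with the replicate 1 libraries highest.

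Rpl7l1, the relative of a yeast ribosome assembly factor, stood at 110 and 86.0 CPM under AIN76A, 86.6, 69.0 and 68.4 CPM under NWD1 and 103 and 91.8 CPM under NWD2. These are the flattest levels among the tested members, and its log2 fold change for NWD2 against AIN76A was -0.01 ± 0.27 (SE). Rpl7, from which it takes its name, gave 220 and 144 CPM in the AIN76A libraries, 167, 83.6 and 103 CPM in those of NWD1 and 186 and 103 CPM in those of NWD2. Their reading frames were 60.4% identical over 709 aligned bases.

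Rps27l, a p53 target, stood at 339 and 196 CPM under AIN76A, 246, 171 and 131 CPM under NWD1 and 203 and 206 CPM under NWD2. It was the member for which NWD2 replicate 1 did not exceed replicate 2. Rps27, a zinc-finger protein, gave 162 and 72.5 CPM in the AIN76A libraries, 121, 46.4 and 50.5 CPM in those of NWD1 and 113 and 50.6 CPM in those of NWD2, with the usual gap. Their reading frames were 75.3% identical, with no identical run longer than 11 bases. The bases of both pairs that follow are shown because they bear on whether reads of such pairs can be told apart. Each line gives bases 1 to 90 of the reading frame in GENCODE M21 (GRCm38) transcripts, with differing bases in capitals, 24 for the first pair and 14 for the second.
Rps27: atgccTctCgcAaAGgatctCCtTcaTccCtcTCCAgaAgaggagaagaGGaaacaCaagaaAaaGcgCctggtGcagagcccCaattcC
Rps27l: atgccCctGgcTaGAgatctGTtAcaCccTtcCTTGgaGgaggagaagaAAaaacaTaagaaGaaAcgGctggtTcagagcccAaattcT
Rpl36a: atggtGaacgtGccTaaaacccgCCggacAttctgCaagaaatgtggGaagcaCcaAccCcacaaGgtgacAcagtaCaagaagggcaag
Rpl36al: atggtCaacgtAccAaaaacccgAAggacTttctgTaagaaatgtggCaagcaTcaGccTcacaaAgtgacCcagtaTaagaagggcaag

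Rpl36al measured 63.4, 38.9 and 39.5 CPM in NWD1 beside the values given above. Levels of its parent Rpl36a were 56.3 and 33.4 CPM for AIN76A, 44.4, 18.3 and 19.9 CPM for NWD1 and 45.4 and 19.8 CPM for NWD2. Rpl36al thus had a smaller gap between NWD2 replicates than Rpl36a, and the reading frames were 87.9% identical with identical runs of up to 24 bases. Rpl22l1 stood at 39.9 and 23.1 CPM under AIN76A, 27.2, 17.2 and 13.0 CPM under NWD1 and 25.4 and 21 CPM under NWD2. Rpl22, 70.9% identical to it, gave 48.2 and 27.1 CPM in the AIN76A libraries, 36.6, 12.4 and 17.4 CPM in those of NWD1 and 37.0 and 17.7 CPM in those of NWD2. Both were highest in AIN76A replicate 1, and the diets overlapped in both.

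Rps19bp1 binds Rps19 and is not a ribosomal protein. It gave 18.2 and 12.7 CPM in the AIN76A libraries, 16.4, 12.4 and 10.8 CPM in those of NWD1 and 16.8 and 7.87 CPM in those of NWD2. Levels of the entry named Rpl24 were 73.7 and 54.8 CPM for AIN76A, 64.5, 50.1 and 47.7 CPM for NWD1 and 62.7 and 40.3 CPM for NWD2. Its Ensembl ID is that of Zbtb11, a zinc-finger protein gene, in GENCODE M21, so its values may not be those of the ribosomal protein gene. Without the entries named Rpl24 and Rps4y2 the members' medians were again -0.70, -0.52 and 0.19. Ribosomal protein genes have many processed pseudogenes, and 152 names with -ps stood in the table. The counts of these names came to 0.451% to 0.543% of the members' counts in each library. Pseudogenes under any other name are not in this share. How the authors' counting treated reads that match several copies is not given in the sources used here, so levels of single members are uncertain to that extent.

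The 6 ribosomal protein genes whose names fall outside the rule mostly showed the same pattern. Rplp0, the base of the ribosomal stalk, stood at 493 and 317 CPM under AIN76A, 384, 146 and 206 CPM under NWD1 and 431 and 210 CPM under NWD2, with a log2 fold change of -0.72 ± 0.46 (SE) for NWD1 against AIN76A. The stalk proteins Rplp1 and Rplp2, and Rpsa, also known as the laminin receptor, had the replicate 1 libraries as their 3 highest. Fau, which encodes a ubiquitin-like protein fused to a ribosomal protein, measured 188 and 195 CPM in NWD2, without the gap. Of these 6 genes, 6 were lower in each comparison with AIN76A, with medians of -0.71 and -0.51, and 0 were called.

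Other genes of translation followed the members to differing degrees, and the edgeR test called 0 of them. Of 8 elongation factor and related genes, 8 were lower with NWD1 and 7 with NWD2 against AIN76A, with median log2 fold changes of -0.49 and -0.29. Eef1a1, which delivers aminoacyl-tRNA, gave 1350 and 949 CPM in the AIN76A libraries, 962, 442 and 713 CPM in those of NWD1 and 1140 and 891 CPM in those of NWD2. Of 9 protein-coding genes on a list of other TOP and related genes, 9 were lower in both comparisons with AIN76A, with medians of -0.43 and -0.33. This list is not a full set of TOP mRNAs, and the TOP tracts of its genes were not checked. Noncoding host genes of small nucleolar RNAs also make TOP transcripts, and 4 of 7 on the list were tested. Their diet differences did not go the members' way: 1 and 2 of the 4 were lower, with medians of 0.44 and -0.0099, although replicate 1 was above replicate 2 in each diet for 4 of 4. Gas5, the most abundant of them, gave 47.4 and 26.1 CPM for AIN76A, 45.6, 27.2 and 17.1 CPM for NWD1 and 41.4 and 15.2 CPM for NWD2. Of 30 initiation factors, 23 and 18 were lower, with medians of -0.22 and -0.07. The common library profile of a list took up 79.8% of the squared deviation for elongation factors and 11.7% for initiation factors. For the list of other TOP and related genes it took up 74.3%, and over all genes tested 0.589%. Unrelated genes give a higher share in a short list than in a long one, so lists of differing size are not directly comparable.

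Genes that build ribosomes differed less. Of 46 tested ribosome biogenesis genes, 41 and 24 were lower with NWD1 and NWD2 against AIN76A, with medians of -0.24 and -0.05, and Ncl, which encodes nucleolin, spanned 97.6 to 146 CPM. RNA polymerase I transcribes the large rRNA precursor, and of 13 tested genes for its subunits and initiation factors 7 and 7 were lower. Of 19 regulators of ribosome production, 8 and 7 were lower. In NWD2 replicate 1 the median biogenesis gene stood 0.37 (log2) above its mean, close to the 0.44 of the members, but in AIN76A replicate 1 only 0.14 above, against 0.87. Mitochondrial ribosomal proteins, which serve the separate ribosome of mitochondria, were lower for 69 and 72 of 75 genes, with medians of -0.47 and -0.30. Their common profile took up 57.5% of the squared deviation, and 0 of these genes were called.

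**Figure D5:**
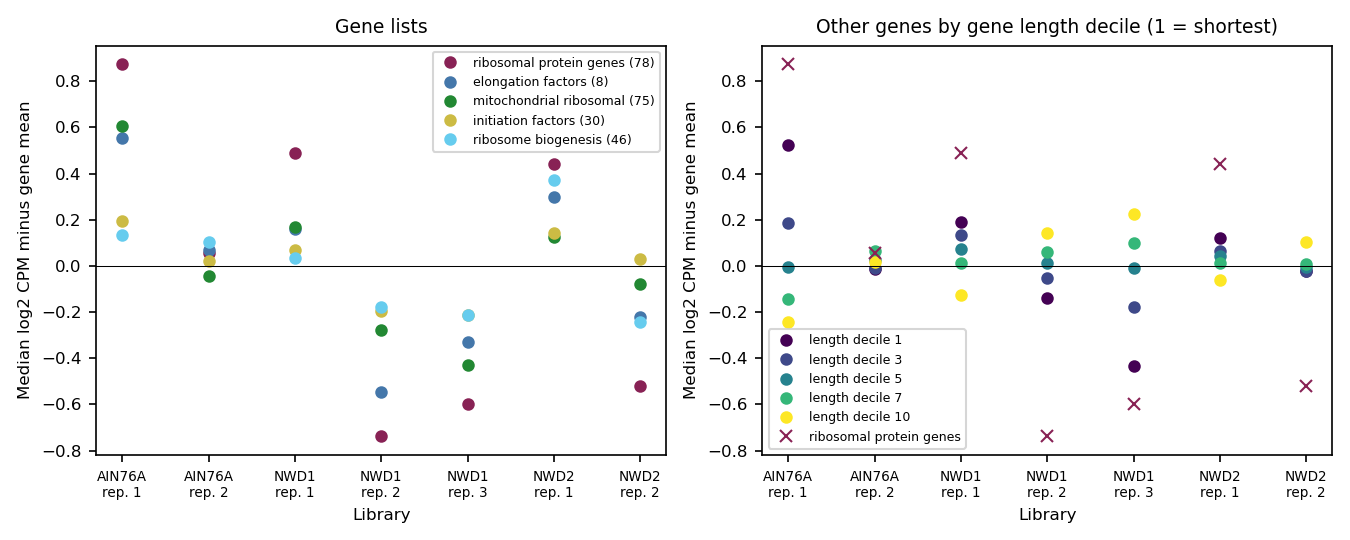
Median over genes of log2 CPM minus the gene's mean, by library. Left, ribosomal protein genes, 3 lists of translation and ribosome biogenesis genes and mitochondrial ribosomal proteins. Right, the genes outside the members by decile of gene length, with the members as crosses. In AIN76A replicate 1 the members stand at 0.87, mitochondrial ribosomal proteins at 0.60 and the shortest length decile of other genes at 0.52.

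Gene length moved with this pattern. The ratio of the deposited counts to TPM gives the gene length used by the authors up to a constant, and the members' median length was 0.430 of the median over all genes tested, with 27 of the 78 in the shortest length decile. Among genes that are no members, the shortest length decile had medians of -0.36, -0.26 and 0.13 in the 3 comparisons, and replicate 1 exceeded replicate 2 by 0.52 in AIN76A, 0.33 in NWD1 and 0.13 in NWD2. In the longest decile the medians were 0.20, 0.12 and -0.03, and replicate 1 minus replicate 2 was -0.27, -0.31 and -0.19. The 9 members of more than the median length had medians of -0.66, -0.48 and 0.15, close to the -0.70, -0.52 and 0.19 of the 69 shorter ones. The 7304 other genes of more than the median length had medians of 0.12, 0.07 and 0.0095, and the 7244 shorter other genes -0.13, -0.13 and 0.08. In both length classes the members' median was below that of the other genes in both comparisons with AIN76A. These lengths are those used by the authors and need not match the mRNAs present, so the split does not control for mRNA length. The 9 longer members include the entry named Rpl24, at a relative length of 1.81. The part of gene length in the members' levels was not tested.

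Markers of secretory cells also differed between libraries. By their sums, Paneth cell markers were highest in both AIN76A libraries and goblet cell markers in AIN76A replicate 1, although single markers could differ. All 10 Paneth cell markers were lower in both comparisons with AIN76A, and their summed level was 27650 to 40430 CPM in AIN76A, 14910 to 20190 CPM in NWD1 and 11130 to 21800 CPM in NWD2. The 8 goblet cell markers summed to 10010 to 20550 CPM in AIN76A, 5739 to 10480 CPM in NWD1 and 8691 to 11000 CPM in NWD2, with 8 and 6 of them lower. Within diets, the Paneth sum was higher in replicate 1 than in replicate 2 with AIN76A and NWD1, as among the members, and lower with NWD2. The goblet sum was higher in replicate 1 than in replicate 2 with AIN76A and lower with NWD1 and NWD2. The 18 cell cycle genes summed to 430 to 881 CPM, with the lowest values in NWD2 replicate 2 and NWD1 replicate 3. Enterocyte markers summed highest, at 80230 CPM, in NWD2 replicate 2, a library in which the members were low.

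Tuft and enteroendocrine cell markers were lowest in NWD2, and the edgeR test called 0 genes of any marker list. The 8 tuft cell markers summed to 196 and 119 CPM for AIN76A, 239, 93.8 and 159 CPM for NWD1 and 49.4 and 59.2 CPM for NWD2. Replicate 1 was above replicate 2 for 8 of 8 under AIN76A and under NWD1, as among the members, and for 5 of 8 under NWD2. Of these 8, 1 and 8 were lower with NWD1 and NWD2 against AIN76A, with median log2 fold changes of 0.07 and -1.69. The 10 enteroendocrine markers were lower for 5 and 10, with medians of -0.02 and -1.72 and sums of 1870 to 2273 CPM in AIN76A, 1710 to 2082 CPM in NWD1 and 496 to 662 CPM in NWD2. Leukocyte markers were higher for 9 and 7 of 9, with medians of 2.0 and 2.26, at sums of only 5.22 to 6.90 CPM for AIN76A, 5.37 to 18.7 CPM for NWD1 and 5.08 to 8.33 CPM for NWD2. Of 9 enterocyte markers 8 and 8 were higher, of 5 crypt base stem cell markers 3 and 5, of 4 reserve stem cell markers 2 and 2, of 4 erythroid markers 1 and 4 and of 5 general epithelial genes 1 and 1. Of the 18 cell cycle genes, 15 and 12 were lower. The part of these cell types in the members' levels was not tested.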

How the data were processed

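Sorted cells were profiled with the SMART-Seq v4 kit and Nextera XT paired-end libraries, per the labels' protocols, which keep no strand information. Whole-number read counts per Ensembl gene were deposited. Per the submitters' processing notes, STAR 2.4.2a, HTSeq 0.6.1, edgeR without a version and the build mm9 were used, and roles, annotation and filters are not given in the sources used here. The deposited TPM values, made by the authors with unstated gene lengths, served for symbols, for levels between genes and as an alternative, and 1 TPM column that matches no sample was not used. Gene coordinates of mm9 were not used.

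All 7 libraries entered one edgeR 4.0.16 quasi-likelihood fit in R 4.3.3 with diet as its term, TMM scaling, filterByExpr and Benjamini-Hochberg adjustment over 14626 genes at 0.05, leaving 4 residual degrees of freedom. The biological coefficient of variation was 0.363. The fit was tested on simulated data. Per-library log2 CPM used a prior count of 0.5. No 2 libraries agreed within sampling noise. Alternatives were other scalings, filters, tools (DESeq2 1.42.0, limma 3.58.1), terms, TPM with a pseudocount of 1 and leaving out each library, and the fit without the entries named Rpl24 and Rps4y2 was added after seeing the data.

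The members and lists were chosen with earlier results of these data known. Genes named were the 6 of highest mean TPM in each subunit, the 4 of smallest p per comparison, the 3 of smallest and of largest range, members with known roles, paralogs, the 6 ribosomal proteins outside the rule, parents of paralogs, and the examples of highest level in other lists. Rpl18, Rpl35 and Rps15a were picked for their sequences, Ncl and Lyz1 after their values were seen. Some genes that this rule names are not reported here, although they stay in the fits and counts.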

Additional observations from a re-analysis of the deposited data

How the results depend on the processing

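No member passed an adjusted p of 0.05 in any comparison under any alternative run. The number of genes called among all tested was 0 in each comparison and was 85, 190 and 384 with no filter on low counts for NWD1 against AIN76A, NWD2 against AIN76A and NWD2 against NWD1, and 1, 52 and 180 with the DESeq2 Wald test. It was 0 in each with limma voom. On log2(TPM + 1) it was 1 for NWD1 against AIN76A and 1 for NWD2 against NWD1. With the i5 index as a term it was 1 for NWD2 against AIN76A and 2 for NWD2 against NWD1, and with only the 2 diets compared 6 for NWD2 against AIN76A. Leaving out each library gave 0 to 1 for NWD2 against NWD1. The causes were not tested.

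The members' median for NWD2 against AIN76A was 0.11 with the i5 term. Leaving out each library gave medians of -1.19 to -0.22, -1.12 to -0.03 and -0.40 to 0.71. With the replicate number as a block the medians were -0.59, -0.52 and 0.04, and 1 gene was called for NWD2 against AIN76A. Deviations of same-numbered libraries correlated at -0.024 to 0.234, and those of differently numbered libraries at -0.234 to 0.144. In a diet of 2 libraries the deviations mirror each other, so these values cannot decide whether the numbers pair libraries. The labels name no such pairing, and the block was not used in the main fit.

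Of the fold changes printed for single genes, those for NWD2 against AIN76A turned sign with the i5 term in Rpl28 (0.082), Rpl30 (0.14), Rpl7l1 (0.17), Rps6 (0.081) and Rps4y2 (-0.017). That of Rpl7l1 was 0.022 with no filter and 0.033 with only the 2 diets compared, and that of Rps4y2 -0.068 scaled by library size. That of Rps19bp1 for NWD1 against AIN76A was 0.092 on log2(TPM + 1). Leaving out single libraries gave -0.17 to 0.18 for Rpl7l1, -0.96 to 0.058 for Rps6 and -0.19 to 0.32 for Rps4y2 in NWD2 against AIN76A, and -0.46 to 0.048 for Rps19bp1 in NWD1 against AIN76A. Depth limits the 3 untested members and, among libraries, NWD1 replicate 3.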
